A study of Mus musculus with 10 samples.

Results

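The mitochondrial ribosomal protein genes of mouse brown adipose tissue were taken as all listed genes whose symbol is *Mrpl* or *Mrps* followed by a number and at most 1 letter. The rule found 78 of the 27267 listed genes, 49 with a *Mrpl* symbol for the large subunit and 29 with a *Mrps* symbol for the small subunit, and it used no measured value. Interscapular brown adipose tissue of C57BL/6 mice labelled male and 4 weeks of age, fed standard chow, was sequenced with single reads, in 5 libraries labelled wild type and 5 labelled *Mgp*-KO. The knockout is global and not limited to 1 cell type, and the gene encodes matrix Gla protein, an inhibitor of bone morphogenetic proteins. The question the comparison answers is which genes differ in brown fat between *Mgp*-KO and wild type. The study's methods take the RNA from as many pairs of *Mgp*-KO and wild-type mice as there are libraries in a group, so the spread within a group is read as that between mice, and neither they nor the labels say which libraries form a pair or name litters.

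Mitochondria carry their own ribosome, which makes the few respiratory chain and ATP synthase proteins that mitochondrial DNA encodes. Its ribosomal RNAs are transcribed in the organelle, whereas each of its proteins is encoded in the nucleus, made in the cytosol and imported. Some of these proteins descend from bacterial ribosomal proteins and others are found in mitochondria and not in bacteria. Brown adipocytes are packed with mitochondria, and their thermogenesis runs on the respiratory chain that mitochondrial translation helps to build.

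The values are normalized counts, that is, the reads of each library on a gene divided by the library's size factor. The reads counted on genes ranged from 9253793 to 22252260 per library, and between 0.279% and 0.522% of them lay on the 78 genes. The reads of *Mgp* itself went against 2 labels. Wild-type libraries 1 to 5 had normalized counts of 576, 489, 466, 1146 and 839, and those labelled *Mgp*-KO had 0, 0.765, 0.821, 500.2 and 331, so that the fourth and the fifth held *Mgp* reads, and the group is called by its label throughout. Wild type 2, labelled male, held reads of *Xist*, which is expressed in female tissue. Replicates 1 to 3 of both genotypes also stood apart from replicates 4 and 5 of both, with 19616366 to 22252260 reads per library against 9253793 to 13281873, and the genotypes were therefore also compared within each of these sets and with a term for the set. The library labelled *Mgp*-KO 4 stood apart further, with 16.7% of its reads on mitochondrial ribosomal RNA, against 0.771% to 8.57% in the other 9. *Ucp1*, for the uncoupling protein of brown fat, had reads in every library, with normalized counts that differed widely, between 2201 and 116019.

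Genes for mitochondrial proteins often carry short motifs of a few transcription factors near their starts, so the starts of the members were read from RefSeq (GRCm38.p6) and 4 motifs were searched on both strands. These were CGCATGCG for nuclear respiratory factor 1, CCGGAAGT for the ETS factor GABPA, AAGATGGC for YY1 and TCAAGGTCA for the estrogen-related receptors, none of which contains another, and the first reads the same on both strands. Of the 78 members 69 matched a window of 250 bases before to 50 bases after a start. At least 1 of the 4 motifs stood in 29 of the 69 genes (42.0%), against 17.4% of the 10060 tested genes and 9.48% of all 27025 genes with a window. The GABPA letters stood in 12 members (17.4%, against 8.96% of tested genes), the YY1 letters in 12 (17.4%, against 5.19%) and the NRF1 letters in 7 (10.1%, against 4.28%). The letters for the estrogen-related receptors stood in 0 of the 69 windows' genes and in 0.348% of tested genes. The median GC content of the members' windows was 58.7%, against 60.67% in those of tested genes. In the *Mrpl* genes the NRF1 letters were found in 6 of 43, and in the *Mrps* genes in 1 of 26, whereas the YY1 letters were found in 6 of each. A match describes the letters in the window and is no evidence of binding.

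The 120 bases before the start of 4 members are shown, 3 because these members had among the lowest p-values between the genotypes and hold the GABPA letters there, and *Mrpl32* because it holds the NRF1 letters in 2 places. Capitals mark the motif on either strand (CCGGAAGT or its reverse complement ACTTCCGG, and CGCATGCG), each sequence is read 5′ to 3′ along the gene, and the coordinates are those of GRCm38.p6.
*Mrps22* (chr9:98601680-98601799, reverse strand): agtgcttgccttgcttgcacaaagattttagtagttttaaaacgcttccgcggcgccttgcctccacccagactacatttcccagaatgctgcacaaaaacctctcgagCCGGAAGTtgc
*Mrps27* (chr13:99344666-99344785, forward strand): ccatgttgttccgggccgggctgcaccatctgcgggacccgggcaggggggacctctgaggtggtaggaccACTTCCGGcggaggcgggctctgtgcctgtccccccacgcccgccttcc
*Mrpl48* (chr7:100583131-100583250, reverse strand): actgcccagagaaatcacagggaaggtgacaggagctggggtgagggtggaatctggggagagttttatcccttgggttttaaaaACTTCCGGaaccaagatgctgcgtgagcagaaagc
*Mrpl32* (chr13:14613038-14613157, reverse strand): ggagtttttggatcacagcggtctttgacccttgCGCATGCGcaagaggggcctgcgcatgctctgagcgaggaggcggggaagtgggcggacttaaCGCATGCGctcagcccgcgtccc
In *Mrps22* the motif began 11 bases before the start, in *Mrps27* 49 bases and in *Mrpl48* 35 bases before it. The rest of the 8 members with the lowest p-values hold no GABPA letters in their windows. *Mrpl37* and *Mrps11* hold the YY1 letters alone, and *Mrpl16*, *Mrpl58* and *Mrps21* hold none of the motifs. *Mrpl48* has 4 listed starts, and the other 3 windows hold none of the motifs. The start shown lies inside the gene, which spans chr7:100545751-100608301. The window that adjoins its upstream end, chr7:100608302-100608421, is among the 3 without a motif.

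Levels can be compared between genes only per length, so wild-type normalized counts were divided by the length of each gene's merged exons in kilobases, from the GENCODE annotation of GRCm38, in which all 78 symbols were found. The median member stood at 459 normalized counts per kb in wild type, with 465 for *Mrpl* genes and 457 for *Mrps* genes. The nuclear subunits of respiratory chain complexes I to IV, which share the organelle with the ribosome, had a median of 5321 per kb over 64 genes. *Mrpl42* was highest at 3151 ± 614 (SD, n = 5), followed by *Mrpl34* at 2892 ± 321, *Mrpl30* at 2750.1 ± 975 and *Mrps21* at 2371 ± 278 normalized counts per kb. These encode proteins of the large subunit, and in the case of *Mrps21* a protein of the small subunit. *Mrpl12*, whose product has also been tied to the mitochondrial RNA polymerase, came next at 1976 ± 319. At the lower end were *Mrpl48* at 92.6 ± 21.3, *Mrps33* at 87.9 ± 13.0 and *Mrpl23* at 23.7 ± 7.88 normalized counts per kb. The merged length covers the exons of all annotated transcripts of a gene, 4696 bases in *Mrpl48*, so the place of a gene in this order depends on it. Along this order, 74 of the 77 steps between neighbours were no larger than the greater SD of the pair, so most neighbours in this order do not differ beyond their spread.

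*Mrpl53* was the member that the filter on low values left out. Across wild type 1 to 5 its normalized counts read 0.715, 0, 1.47, 0 and 0, and across the libraries labelled *Mgp*-KO they read 0.754, 3.82, 3.28, 0 and 0, against floors of 3 reads that lie between 2.15 and 5.19 normalized counts, so no fold is given. Every 50-base window of its exons also belongs to the listed gene *Gm42688*, which was at 13.0 to 32.0 normalized counts, and reads that fit both genes cannot be placed. Over all members the median share of such windows was 3.56%, and in 5 it was above 50%: *Mrpl53*, *Mrps25*, *Mrps18b*, *Mrps34* and *Mrpl23*. The other 77 members had at least 7 reads in each library and were tested.

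Across the genotypes, the members leaned to lower values in the libraries labelled *Mgp*-KO, by a small amount and without a single member passing the test. The log2 fold change of *Mgp*-KO against wild type was below 0 in 71 of the 77 tested members, where 47.3% of all 13714 tested genes were below 0. The median was -0.28 over the 48 *Mrpl* genes and -0.27 over the 29 *Mrps* genes, against 0.026 over all tested genes. The median standard error (SE) of a member was 0.25, so the median member lay about its own standard error below 0. After Benjamini-Hochberg adjustment 0 of the 77 had an adjusted p under 0.05 in limma (0.0656% of all tested genes did), and without a further term 0 did in edgeR (0.0219% of all genes tested there) and 0 in DESeq2 (2.49%). At an unadjusted p under 0.05 it was 10 members against 10.4% of tested genes, 9 of them lower against 5.69%. By subunit, 43 of 48 *Mrpl* genes and 28 of 29 *Mrps* genes were below 0. In bulk tissue, fewer brown adipocytes and less RNA per cell cannot be told apart.

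**Figure D1:**
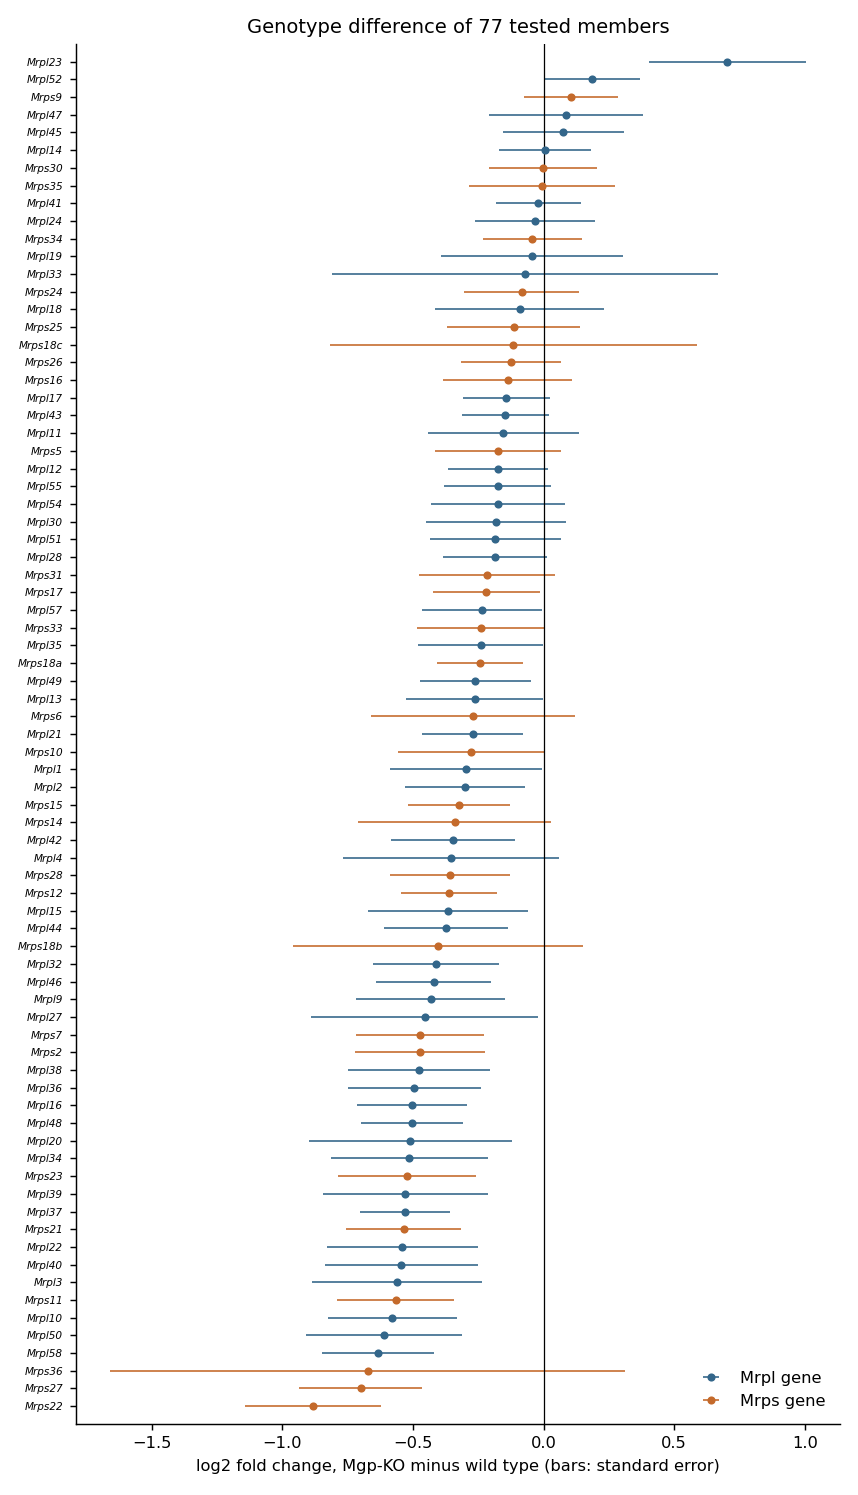
Log2 fold change of the *Mgp*-KO-labelled libraries over wild type (x axis, log2 scale) for each of the 77 tested members, sorted, with bars for the standard error. Of the 77 points 71 lie left of 0, from -0.88 for *Mrps22* up to 0.70 for *Mrpl23*, and *Mrpl* and *Mrps* genes are mixed along the order.

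Summed over the large subunit symbols, normalized counts were 38759.8, 39292, 45495, 57803 and 54349.6 in wild type 1 to 5, against 40640.2, 31742, 37632, 32631 and 52079.9 in the *Mgp*-KO-labelled libraries 1 to 5. For the small subunit symbols the sums were 18429, 19044, 22925, 27600.1 and 25268 in wild type 1 to 5, against 20224, 15721, 18119.9, 16558 and 24873 in the *Mgp*-KO-labelled libraries 1 to 5. The groups overlapped in both sums, and wild type 4, wild type 5 and the library labelled *Mgp*-KO 5 were the 3 highest in both. The ratio of the *Mrpl* sum to the *Mrps* sum stayed between 1.97 and 2.15 in the 10 libraries, 2.08 ± 0.0616 (SD, n = 5) in wild type and 2.03 ± 0.0506 in the libraries labelled *Mgp*-KO, a difference smaller than either SD. The members also varied together from library to library. Over the 10 libraries the median Pearson correlation of 2 members was 0.578, alike for pairs of *Mrpl* genes (0.574), pairs of *Mrps* genes (0.572) and mixed pairs (0.580). The mean was 0.458, against 0.00059 over all pairs of tested genes. These correlations are descriptions, since the points share libraries, depth and the difference between the sets. Of the 77 members 64 correlated above 0.5 with the median of the others, and *Mrpl23*, *Mrps36*, *Mrpl4*, *Mrpl38* and *Mrpl52* were the 5 below 0.

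**Figure D2:**
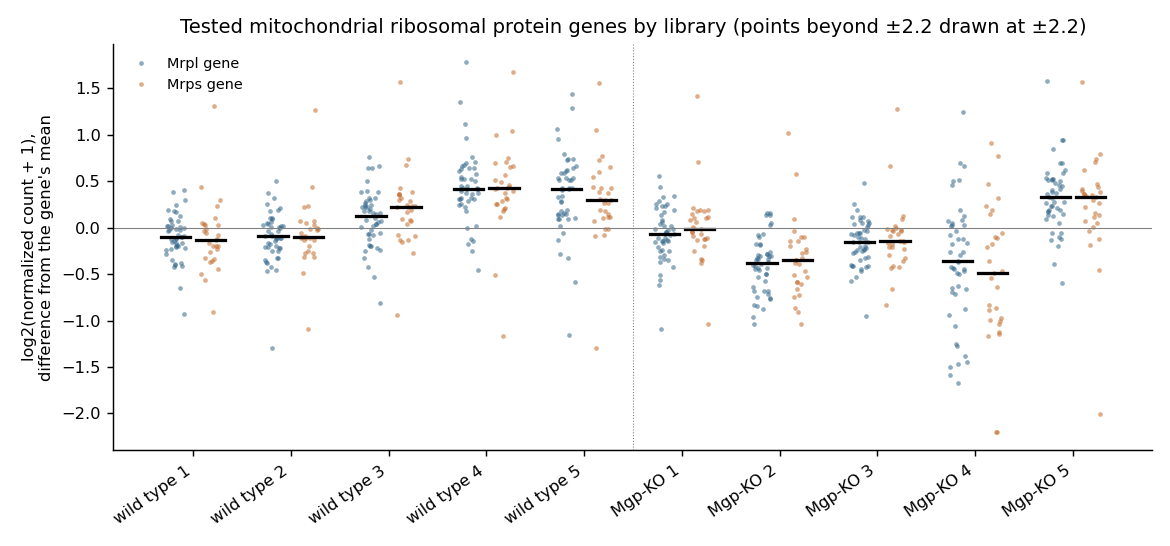
Difference of each tested member from its own mean over the 10 libraries (y axis, log2 of normalized count + 1), by library, with *Mrpl* genes in blue, *Mrps* genes in orange and black lines for the medians, points beyond ±2.2 being drawn at ±2.2. The medians of both subunits are highest in wild type 4, at 0.42 for both, and lowest for *Mrpl* genes in the library labelled *Mgp*-KO 2 (-0.38, with -0.35 for *Mrps* genes) and for *Mrps* genes in *Mgp*-KO 4 (-0.49, with -0.36 for *Mrpl* genes).

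The markers of brown adipocytes and of other cell types the tissue can hold were read beside the members. Wild type 4, wild type 5 and the library labelled *Mgp*-KO 5, highest in members, were also the 3 highest in the summed normalized counts of 12 brown adipocyte markers, at 426129, 429846 and 316083. This sum ranged from 228828 to 429846 in wild type and from 162119 to 316083 in the libraries labelled *Mgp*-KO. Within each set the genotypes did not overlap in it. Wild type had 228828 to 247112 in replicates 1 to 3, against 162119 to 202121. In replicates 4 and 5 wild type had 426129 to 429846, against 215814 to 316083. All 12 markers had a log2 fold change below 0, 0 passed in limma without a further term (0.0656% of all tested genes did), and 4 fell with the set term (*Elovl3*, *Ucp1*, *Adrb3* and *Dio2*), where 2.36% of all tested genes were called in either direction. The summed endothelial markers ranged from 19839 to 33769 in wild type and from 23664 to 63223 in the libraries labelled *Mgp*-KO, the highest being *Mgp*-KO 4 and the next 31841, with 10 of 10 log2 fold changes above 0 and 0 past the threshold. Erythroid markers summed to 6468 to 20015 in wild type and to 3012 to 101722 in the libraries labelled *Mgp*-KO, with the highest value in *Mgp*-KO 4, and 0 of 7 passed. Skeletal muscle markers were high in the libraries labelled *Mgp*-KO 2 and *Mgp*-KO 5, at 32510.3 and 35839, against 36.1 to 6188 in the other 8, and 0 of 10 passed. For the 10 myeloid and 8 adipose progenitor markers 0 passed as well, with median log2 fold changes of 0.099 and -0.50. What part these cell types had in the members' values was not tested.

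By descent and position, the classes of proteins had alike medians. The 30 genes for large subunit proteins with a bacterial homolog had a median log2 fold change of -0.27, with 27 below 0, and the 20 tested genes for large subunit proteins particular to mitochondria had -0.30, with 18 below 0. The 16 genes for small subunit proteins with a bacterial homolog had -0.30, with 15 below 0, and the 10 for small subunit proteins particular to mitochondria had -0.23, with 10 below 0. In all of these classes 0 genes passed in limma, where 0.0656% of all tested genes did. A few members carry a symbol at odds with the place of their product. *Mrps18a* and *Mrps30* encode proteins placed in the large subunit, and their log2 fold changes were -0.24 (SE 0.16) and -0.0025 (SE 0.21). The product of *Mrps36* is a subunit of the 2-oxoglutarate dehydrogenase complex of the citric acid cycle and not of the ribosome, and its log2 fold change was -0.67 with a standard error of 0.98, the widest of the members. Sorted by structure instead of by symbol, 45 of 50 large subunit genes and 25 of 26 small subunit genes were below 0, with both medians at -0.27.

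*Mrps22* had the lowest p-value of the members. It encodes a small subunit protein particular to mitochondria and lies on chromosome 9, 98588730 to 98601660, reverse strand of GRCm38. In wild type 1 to 5 its normalized counts were 322, 323, 334, 361 and 569, whereas the *Mgp*-KO-labelled libraries 1 to 5 had 229, 165, 246, 123 and 288. All wild-type libraries lay above all libraries labelled *Mgp*-KO, wild type 5 being the highest. The means were 382 ± 106 (SD, n = 5) and 210.3 ± 65.8, which gave a log2 fold change of -0.88 (SE 0.26, limma adjusted p = 0.225).

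*Mrps27* encodes a small subunit protein of the pentatricopeptide repeat type, and lies on chromosome 13, 99344786 to 99415562, forward strand. Wild-type libraries 1 to 5 had normalized counts of 816, 774, 1062, 719.7 and 895, and those labelled *Mgp*-KO had 689.6, 506, 633, 295 and 583. The groups did not overlap, and the library labelled *Mgp*-KO 4 was the lowest. The log2 fold change was -0.70 (SE 0.24, limma adjusted p = 0.298). The antisense gene *6430562O15Rik* overlaps its exons and was at 6.92 to 42.1 normalized counts.

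*Mrpl37*, a large subunit gene on chromosome 4, 107055874 to 107066868, reverse strand, encodes a protein particular to mitochondria. Across wild type 1 to 5 its normalized counts read 1107, 1211, 1356, 1538 and 1609, and across the libraries labelled *Mgp*-KO they read 1008, 821, 1040.4, 793 and 1046, again without overlap. The log2 fold change was -0.53 (SE 0.17, limma adjusted p = 0.272). *Mrpl10*, which encodes a protein at the base of the stalk of the large subunit, was the other member whose libraries labelled *Mgp*-KO all lay lower, named after its values were seen. In wild type 1 to 5 its normalized counts were 1533, 1541, 1774, 1738 and 1711, whereas the *Mgp*-KO-labelled libraries 1 to 5 had 1523, 1115, 1327, 569.8 and 1301, which gave a log2 fold change of -0.58 (SE 0.25, limma adjusted p = 0.440). Groups apart and lower were thus seen in 4 of 77 members, against 2.11% of all tested genes.

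*Mrpl58* and *Mrpl48* followed in p-value. *Mrpl58* encodes a peptidyl-tRNA hydrolase that sits in the large subunit and can free stalled chains, and its normalized counts were 482, 514, 597, 742 and 697 in wild type, against 389.7, 269, 406, 356 and 555 in the *Mgp*-KO-labelled libraries. The groups overlapped through *Mgp*-KO 5 alone, and the log2 fold change was -0.64 (SE 0.21, limma adjusted p = 0.301). *Mrpl48*, for a large subunit protein of the central protuberance, had normalized counts of 363, 374, 368, 478 and 592 in wild type, against 251, 272, 284, 366 and 345 in the *Mgp*-KO-labelled libraries. Within replicates 1 to 3 and within replicates 4 and 5 its groups were apart, and over both sets *Mgp*-KO 4 lay above wild type 1, with both genotypes higher in replicates 4 and 5. Its log2 fold change was -0.50 (SE 0.19, limma adjusted p = 0.376). Exons of *Mrpl48* overlap those of *Rab6a* on the opposite strand, which was at 1003 to 1481 normalized counts, and 13.4% of its windows are shared with other genes, mainly *Rab6a*, whose reads there can be told apart only where the counting used strand, which the sources used here do not state.

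Of the other members with the lowest p-values, *Mrps11*, *Mrps21* and *Mrpl16* encode proteins with bacterial homologs. Their log2 fold changes were -0.57, -0.54 and -0.50, with standard errors of 0.22, 0.22 and 0.21 and adjusted p-values of 0.391, 0.421 and 0.428 from limma. The groups of these 3 genes overlapped.

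*Mrpl23* had the most positive log2 fold change of the 6 members above 0. It encodes a large subunit protein near the exit of the peptide tunnel and is a low-count member on chromosome 7, 142532686 to 142540747, forward strand. Wild-type libraries 1 to 5 had normalized counts of 30.0, 29.9, 19.1, 23.5 and 12.1, and those labelled *Mgp*-KO had 38.4, 31.4, 33.7, 40.5 and 37.5, so that all libraries labelled *Mgp*-KO lay above all wild-type libraries. Groups apart and higher were seen in this 1 member, against 1.39% of all tested genes. The log2 fold change was 0.70 (SE 0.30, limma adjusted p = 0.441). Of its 50-base windows 51.7% are shared with the processed pseudogene *Mrpl23-ps1*, which stood at 42.1 and 18.8 normalized counts for *Mgp*-KO 4 and 5 and at 3.74 to 8.82 in the other 8 libraries, so its value is uncertain. The next most positive were *Mrpl52* at 0.19 (SE 0.18, limma adjusted p = 0.777) and *Mrps9* at 0.11 (SE 0.18, limma adjusted p = 0.884), both of overlapping groups.

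**Figure D3:**
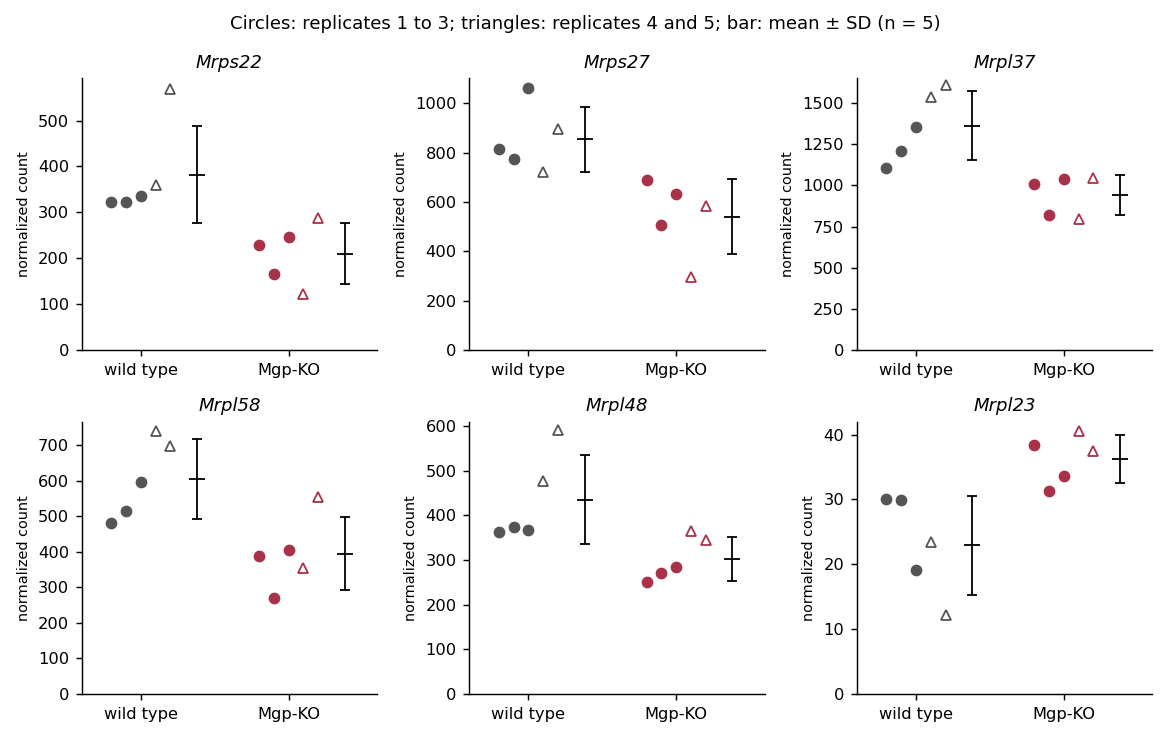
Normalized counts (y axis, from 0) of 6 members in wild type and in the libraries labelled *Mgp*-KO, with circles for replicates 1 to 3, triangles for replicates 4 and 5, and bars for mean ± SD (n = 5). In *Mrps22*, *Mrps27* and *Mrpl37* every library labelled *Mgp*-KO lies below every wild-type library, and in *Mrpl23* every one lies above.

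Within replicates 1 to 3 the members lay lower by a smaller amount, and within replicates 4 and 5 by a larger one. The larger amount rests mainly on 1 library, *Mgp*-KO 4. In replicates 1 to 3, where the *Mgp* reads go with the labels, 60 of 77 log2 fold changes were below 0 (47.4% of tested genes), with medians of -0.18 for *Mrpl* genes and -0.17 for *Mrps* genes. The median difference of the members from their own means was -0.11, -0.096 and 0.16 in wild type 1 to 3. It was -0.051, -0.37 and -0.15 in *Mgp*-KO 1 to 3, so *Mgp*-KO 1 lay above wild type 1 and 2. In limma 0 members passed there, against 3.77% of tested genes, and 10 had an unadjusted p under 0.05, all lower, where 10.8% of tested genes were lower at that threshold. In replicates 4 and 5, where both libraries labelled *Mgp*-KO hold *Mgp* reads, 70 of 77 were below 0 (48.1% of tested genes), with medians of -0.48 and -0.45. There the median difference of the members from their own means was 0.42 in wild type 4 and 0.34 in wild type 5. It was -0.43 in *Mgp*-KO 4 and 0.33 in *Mgp*-KO 5, the latter close to wild type 5. With 2 libraries per group 0 members passed in limma, as did 0% of tested genes, and 5 had an unadjusted p under 0.05, all lower, against 3.23% of tested genes. The difference between the sets in the genotype effect did not pass in limma for any of the 77 members, against 0.00729% of tested genes, and 3 had an unadjusted p under 0.05, against 10.3% of tested genes.

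**Figure D4:**
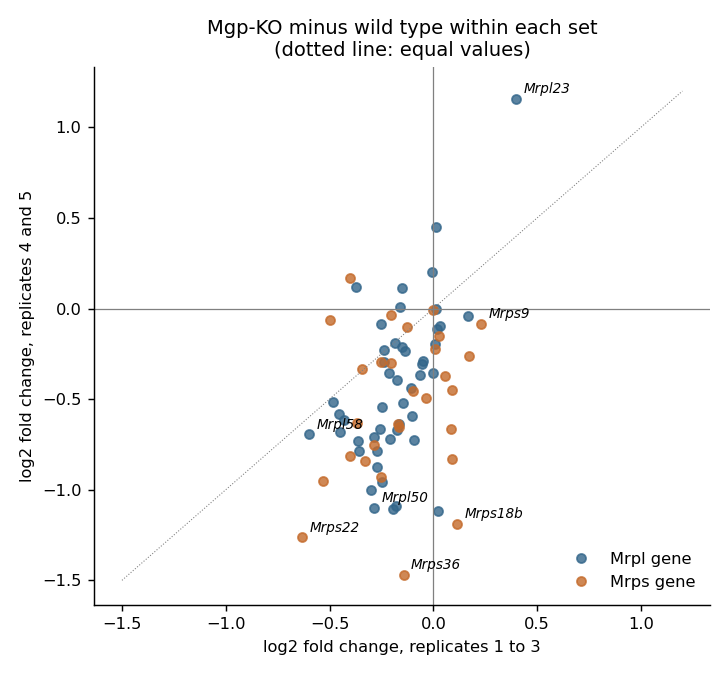
Log2 fold change of the *Mgp*-KO-labelled libraries over wild type within replicates 1 to 3 (x axis) and within replicates 4 and 5 (y axis) for the 77 tested members, *Mrpl* genes in blue and *Mrps* genes in orange. Of the 77 points 60 lie left of 0 and 70 lie below 0, and most lie under the dotted line of equal values.

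With a term for the set, which takes the difference between replicates 1 to 3 and replicates 4 and 5 out of the error, the fold changes were the same and the median standard error of a member was 0.18 in place of 0.25. In limma 0 members passed, against 2.36% of tested genes, and 20 had an unadjusted p under 0.05 against 19.3%, 19 of them lower against 10.1% of tested genes. The lowest adjusted p-values from limma were 0.0526 for *Mrpl48*, 0.0718 for *Mrpl58*, 0.0817 for *Mrpl37*, 0.0866 for *Mrps22* and 0.0953 for *Mrps27*. On the recovered reads with the same term, DESeq2 called these 5 members, all lower, where it called 3.76% of its 16060 tested genes lower. Its log2 fold changes were -0.51 for *Mrpl48* (adjusted p = 0.00139 from DESeq2), -0.52 for *Mrpl37*, -0.61 for *Mrpl58*, -0.83 for *Mrps22* and -0.67 for *Mrps27*. In edgeR with the term, 1 member passed, *Mrpl48* (adjusted p = 0.0444 from edgeR), where 1.56% of tested genes were called lower. *Mrpl20*, *Mrpl38* and *Mrpl50* completed the 8 lowest p-values in limma with the term, with log2 fold changes of -0.51, -0.48 and -0.61 and adjusted p-values of 0.120, 0.133 and 0.134.

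Single libraries weighed on the medians. Without wild type 4 the median log2 fold change was -0.20 over *Mrpl* genes and -0.17 over *Mrps* genes, and 58 of 77 members were below 0. Without *Mgp*-KO 4 the medians were -0.21 and -0.19, with 65 of 77 below 0.

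Between the sets themselves more members passed the test than between the genotypes. With genotype in the model, 31 of 77 members differed between replicates 4 and 5 and replicates 1 to 3 in limma, as did 38.2% of all tested genes, so the share is near that of the background. Of these 26 were higher in replicates 4 and 5 (18.3% of tested genes) and 5 were lower (19.9%). The labels do not say what sets these libraries apart.

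The 5 lower ones were *Mrps36*, *Mrps18b*, *Mrpl4*, *Mrpl38* and *Mrpl57*. *Mrps36* had normalized counts of 534, 517, 639.6, 95.3 and 86.5 in wild type, against 574, 436, 523, 19.4 and 52.8 in the *Mgp*-KO-labelled libraries. Every library of replicates 4 and 5 lay below every library of replicates 1 to 3 in both genotypes, with a log2 difference of -3.28 (adjusted p = 5.07e-05 from limma). Of its windows 33.7% are shared with other listed genes, mainly the processed pseudogene *Mrps36-ps1*, which was at 0 to 2.34 normalized counts. *Mrps18b*, 1 of 3 members with a *Mrps18* symbol, of which *Mrps18c* alone was counted above as having a bacterial homolog and *Mrps18a* and *Mrps18b* as particular to mitochondria, was at 404, 404, 498, 209.6 and 282 in wild type, against 488, 446, 475, 51.8 and 217 in the *Mgp*-KO-labelled libraries (log2 difference -1.48, adjusted p = 0.00867 from limma). *Mrpl4*, named after its values were seen as are *Mrpl33* and *Mrpl27*, fell by 1.18 on this scale (adjusted p = 0.00244 from limma), and shares none of its windows with another gene.

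*Mrpl33* and *Mrps18c* had the largest positive log2 differences of the tested members between replicates 4 and 5 and replicates 1 to 3. The normalized counts of *Mrpl33*, for a small protein of the large subunit, were 195, 151, 212, 1281 and 1011 in wild type, against 174, 190.5, 192, 885 and 1118 in the *Mgp*-KO-labelled libraries. In both genotypes the fourth and the fifth library stood well above the other 3, by 2.52 on the log2 scale (adjusted p = 2.28e-06 from limma), and 30.3% of its windows are shared with another gene. *Mrps18c* had normalized counts of 98.7, 86.9, 96.3, 595 and 552 in wild type, against 90.4, 98.7, 104, 351 and 556 in the *Mgp*-KO-labelled libraries. It moved opposite to *Mrps18b* between the sets, by 2.38 (adjusted p = 9.01e-06 from limma), whereas *Mrps18a*, whose product is in the large subunit, had a difference of 0.26 (adjusted p = 0.127). Between the genotypes the log2 fold changes of *Mrps18a*, *Mrps18b* and *Mrps18c* were -0.24, -0.41 and -0.12, and none passed the test in limma. *Mrpl27* rose by 1.34 between the sets and *Mrpl20* by 1.21. Among the members higher in replicates 4 and 5 were 13 of the 25 tested ones whose exons overlap another gene and 13 of the 52 without such an overlap, and this difference was not tested.

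**Figure D5:**
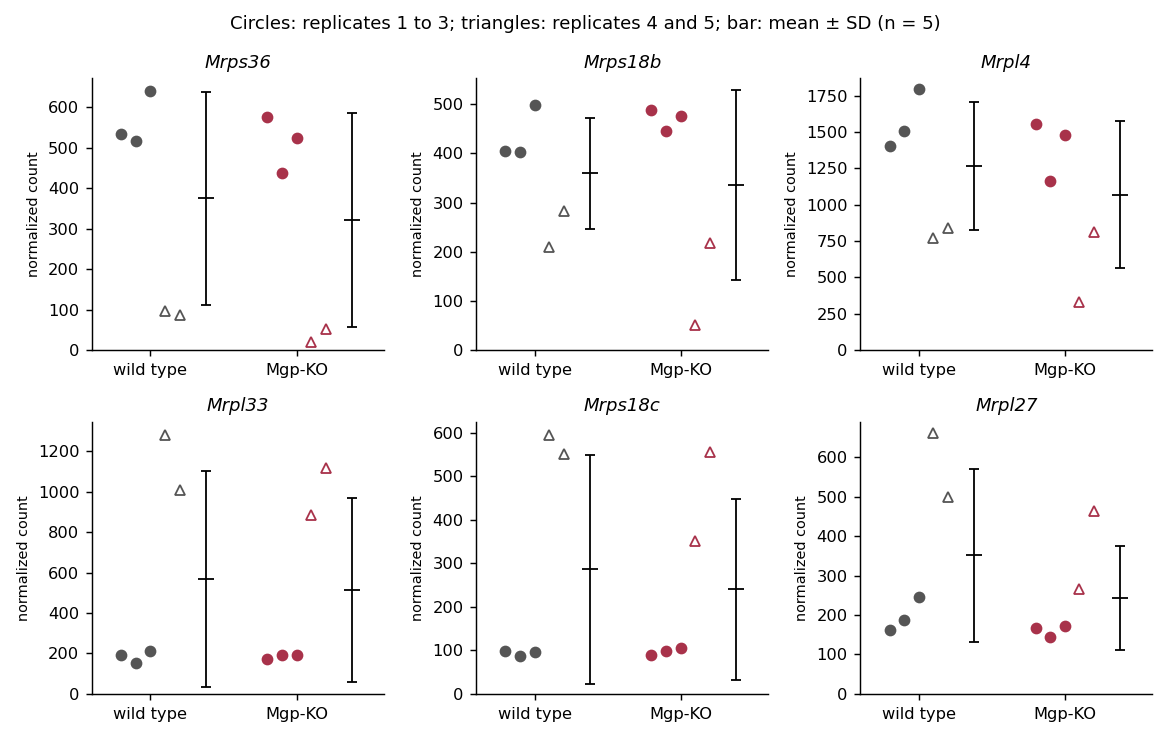
Normalized counts (y axis, from 0) of 6 members that differ between the sets, in wild type and in the libraries labelled *Mgp*-KO, with circles for replicates 1 to 3, triangles for replicates 4 and 5, and bars for mean ± SD (n = 5). In *Mrps36*, *Mrps18b* and *Mrpl4* the triangles lie below the circles, and in *Mrpl33*, *Mrps18c* and *Mrpl27* they lie above, in both genotypes.

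The RNA of the mitochondrial ribosome differed between the sets and did not pass between the genotypes. *mt-Rnr1*, the ribosomal RNA of the small subunit, had normalized counts of 102144, 88388, 56464, 484502 and 433696 in wild type, against 74314, 67044, 70848, 864004 and 373353 in the *Mgp*-KO-labelled libraries. Together with *mt-Rnr2*, that of the large subunit, it took 0.771% to 1.72% of the reads in replicates 1 to 3 and 6.50% to 16.7% in replicates 4 and 5. The log2 differences between the sets were 2.76 for *mt-Rnr1* and 3.27 for *mt-Rnr2* (limma adjusted p = 2.39e-04 and 2.42e-04). Both were highest in the library labelled *Mgp*-KO 4, and their log2 fold changes between the genotypes were 0.018 (SE 0.86, limma adjusted p = 0.996) and 0.092 (SE 1.01, limma adjusted p = 0.983). The mRNA encoded in mitochondrial DNA, which this ribosome translates, had 8 tested genes, 2 below 0 and 6 above, with a median of 0.21 and 0 past the threshold.

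The log2 fold changes of other nuclear genes of mitochondrial translation were mostly below 0, and none passed the test. Of 17 mitochondrial aminoacyl-tRNA synthetases, which charge the tRNAs of the organelle, 16 had a log2 fold change below 0, with a median of -0.41, and 5 had an unadjusted p under 0.05, all lower, where 5.69% of all tested genes were lower at that threshold. Of 15 translation factors, which start, extend and end chains, 14 were below 0, with a median of -0.31. Of 25 assembly factors, which build the ribosome, 20 were below 0, with a median of -0.16. All 5 ribosomal proteins with other symbols were below 0, with a median of -0.12. In each of these lists 0 genes passed in limma, where 0.0656% of all tested genes did without a further term and 2.36% with the set term.

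Transcription and maintenance of mitochondrial DNA had 5 of 8 genes below 0, with a median of -0.12, and 0 past the threshold. The 10 regulators of nuclear genes for mitochondria had 3 below 0 and 7 above, with a median of 0.069. Among them *Myc*, a transcription factor that drives ribosome production and growth, was the 1 gene of the mitochondrial lists that passed in limma with the set term, where 2.36% of all tested genes did, and it rose by 1.11 on the log2 scale (SE 0.22, limma adjusted p = 0.0259). Without the term its adjusted p was 0.550 from limma. Across wild type 1 to 5 its normalized counts read 274, 216, 291, 48.4 and 46.7, and across the libraries labelled *Mgp*-KO they read 399, 392, 459, 194 and 136, higher in each set in the libraries labelled *Mgp*-KO.

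The cytosolic ribosome, which makes the proteins encoded in the nucleus, had mostly positive values. Of its 82 tested protein genes 24 had a log2 fold change below 0 and 58 above, with a median of 0.22, and 0 passed in limma. This list is uncertain, since a median of 42.4% of the 50-base windows of its 86 genes also occur in other genes, often pseudogenes, and their median level was 212 normalized counts per kb. The nuclear subunits of respiratory chain complexes I to IV had 50 of 64 below 0, with a median of -0.16 and 0 past the threshold. Their summed normalized counts averaged 427654 over wild type 1 to 3 and 425459 over *Mgp*-KO 1 to 3. For wild type 4 and 5 the sums were 635667 and 559450, against 339792 and 574183 for *Mgp*-KO 4 and 5. Groups apart and lower were seen in 0 of the 64 genes within replicates 1 to 3, and apart and higher in 2. Within replicates 4 and 5 these counts were 16 and 2.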

How the data were processed

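The members and the gene lists were chosen with earlier results of these data known. The authors mapped the reads with STAR to mm10, counted them on genes and deposited a signal per gene, counts divided by size factors from DESeq2. In each library 100% of these values were whole multiples, within 0.01 reads, of the value of 1 read, and reads were recovered from them. Strand setting and annotation release are not given in the sources used here. Intervals and floors of 3 reads cover counting error only.

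Genotypes were compared by limma 3.58.1 (R 4.3.3), which shrinks variances toward their trend with the mean, after adding 1 and taking log2. The 13714 genes averaging at least 10 normalized counts were tested, with Benjamini-Hochberg adjustment over all of them and a threshold of 0.05. This scale understates changes of low genes. Other settings used edgeR 4.0.16 with TMM and DESeq2 1.42.0 on recovered reads, a set term, each set, other pseudocounts (0.5 and 10), filters and scalings, a replicate block and each library left out. The fits were tested on simulated data with changes larger than those of any member. That test does not show whether changes of the members' size would be found. Named members were the 8 with the lowest p-values without and with the set term, the 3 most positive and 3 most negative, the 4 highest and 4 lowest per kb, the untested one and 6 named in advance (*Mrps18a*, *Mrps18b*, *Mrps18c*, *Mrps30*, *Mrps36* and *Mrpl12*). Subunit classes and markers came from general knowledge.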

Additional observations from a re-analysis of the deposited data

Results flagged for a closer look

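In 56 groups of 5 libraries the highest and the lowest library were compared with the nearest of the others, and 2 stood apart beyond the critical value of 0.71, where chance gives about 1 group in 20. For *Mrps22* in wild type, wild type 5 at 569 normalized counts lay apart from the next at 361, a gap of 0.844 of the group's range. For *Mrpl50* in the libraries labelled *Mgp*-KO, *Mgp*-KO 5 at 1015 lay apart from the next at 708, a gap of 0.713 of the range.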

How the results depend on the processing

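Over 28 other settings the medians of *Mrpl* and of *Mrps* genes stayed below 0, and leaving out single libraries gave ranges of -0.42 to -0.20 and of -0.36 to -0.17. No member passed in limma under any of its settings. The members called were 1 in edgeR with TMM and the set term and 5 in DESeq2 with the set term, and 0 in edgeR and DESeq2 otherwise. Of 671 values of 24 named members under these settings 6 were past the threshold, and 23, of 5 members, had the other sign without passing it.

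The number of all genes called moved more, from 9 to 29 with a pseudocount of 10, 1 with no filter, 15 with a mean of at least 50, 324 with the set term, 507 in replicates 1 to 3, 0 in replicates 4 and 5, 265 without *Mgp*-KO 4 and 5, 79 with the set term and without wild type 2, 34 with quantile normalization, 3 in edgeR, 341 in edgeR with the set term, 386 in DESeq2 and 1135 in DESeq2 with the set term. With 1 library left out it ranged from 0 (without wild type 2) to 93 (without *Mgp*-KO 4).

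A replicate block in the model gave 270 genes in limma and 222 in edgeR, and 0 members in either. The study describes pairs of mice, and neither it nor the labels say that the numbers mark them. Libraries sharing a number had deviations that correlated at 0.527, 0.0559, 0.327, 0.523 and 0.514 for numbers 1 to 5, with a mean of 0.390, against 0.416 where the set but not the number was shared. Before the set means were subtracted, 5 of the 10 libraries correlated best with their own number. With the set means subtracted the mean for a shared number was -0.022. Since number 2 did not exceed 0.1, the numbers were not taken as pairs. The cause of these shifts was not tested. *Mrpl53* and *Mrpl23* rest on the fewest reads and share 100% and 51.7% of their windows with another gene.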
